A study of Sus scrofa with 6 samples.

Results

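The respiratory chain of mitochondria passes electrons from NADH and succinate through complexes I, II, III and IV to oxygen, and complex V (ATP synthase) uses the proton gradient built on the way to make ATP. Most subunits of these complexes, and every assembly factor that helps to build them, are encoded in the nucleus, made in the cytosol and imported, while the mitochondrial genome encodes a small set of core subunits. Granulosa cells (GCs), the somatic cells that surround the oocyte, need this machinery for ATP and also carry out the first step of steroid synthesis in mitochondria. The nuclear genes of the respiratory chain were taken by name from a table of 17950 Ensembl pig genes. Names beginning with *NDUF*, *SDH*, *UQCR*, *UQCC*, *ATP5* or *ATPAF* were used, together with the numbered *COX4* to *COX8* and *COX10* to *COX20* genes, *SURF1*, *CYC1* and *CYCS*. In total 63 genes were found, 59 by their Ensembl name and 4 (*NDUFB3*, *COX6A1*, *COX6C* and *COX8C*) by the name in a table of the paper. Against a hand-written list of 115 such genes, 52 were not found by name and were not analysed here, among them 16 of 37 complex I subunits and 12 of 17 complex V subunits. The 4 names from the paper came from its lists of genes expressed in each group or differing between the groups in these data. A gene without an Ensembl name could thus enter the set because it differed, while others without one stayed out.

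The cells were GCs of Landrace pigs (pre-pubertal gilts), aspirated from follicles of slaughterhouse ovaries, cultured and infected for 72 h with lentivirus. How many animals stood behind a library was not given in the sources used here. The pLVX-*RBP4* group received a vector with porcine *RBP4*, the gene of the plasma retinol carrier, and the CTRL group the same pLVX-IRES-ZsGreen vector without it, so that both groups carried lentivirus and ZsGreen. Each group had 3 RNA-seq libraries, but the deposited table gives 1 FPKM value per gene and group, that is, fragments scaled by transcript length and by the mapped total. The study lists read totals for each library, but these values give neither the spread between libraries nor the reads behind a gene, so no test could be made from them, and every difference below is a difference between 2 numbers. Log2 differences are pLVX-*RBP4* minus CTRL on the log2(FPKM + 1) scale, which understates differences of weakly expressed genes.

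*RBP4* itself had 1.10 FPKM in CTRL cells and 92.3 FPKM in pLVX-*RBP4* cells. Of 13 granulosa markers 6 were found by name, all above 1 FPKM in both groups, with a summed level of 822.3 FPKM in CTRL cells and 815.9 FPKM in pLVX-*RBP4* cells. Most of this sum was *CYP11A1*, with 672.9 FPKM in CTRL cells and 669.4 FPKM in pLVX-*RBP4* cells. Of the 6, 5 were lower in pLVX-*RBP4* cells, beside 49.8% of all genes, and 1 was higher, with log2 differences from -0.21 to 0.26. After rescaling both columns to a common sum 4 of the 6 were higher, beside 64.9% of all genes. *FOXL2*, *CYP19A1* and *AMH* were not found by name. Stromal markers were also high (4 of 5 found, 886.8 and 980.2 FPKM in sum, mostly *ACTA2*), with 3 higher and 1 lower in pLVX-*RBP4* cells. Leukocyte markers summed to 47.6 and 54.1 FPKM (4 of 5 found, mostly *CD14*), endothelial markers to 19.9 and 19.0 FPKM (2 of 4) and oocyte markers to 3.36 and 3.58 FPKM (2 of 4, *DDX4* listed at 0 in CTRL cells). The pan-leukocyte gene *PTPRC* was near 0, with 0.229 and 0.166 FPKM, as were the theca markers, with a sum of 0.209 and 0.386 FPKM (2 of 3 found, *INSL3* listed at 0 in CTRL cells). In such bulk samples, a change in the number of cells of a type and a change in RNA per cell cannot be told apart, and the part of these markers in the results was not tested.

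Of the 63 genes, 60 had a mean of at least 1 FPKM over both groups, the limit also used for the 12382 genes they are set beside. The other 3 were *NDUFAF6* (0.752 and 0.911 FPKM in the CTRL and pLVX-*RBP4* groups), *NDUFA4L2* (0.408 and 0.128 FPKM) and *COX8C*, which was at 0.139 FPKM in CTRL cells and listed at 0 in pLVX-*RBP4* cells. The latter 2 encode isoforms of complex IV subunits known from hypoxic cells and from testis. Thus the isoforms of general use, *NDUFA4* and *COX8A*, made up nearly the whole signal of those isoforms of their subunits that were found by name. The 60 genes were abundant as a set, with a median of 82.5 FPKM in CTRL cells and 96.8 FPKM in pLVX-*RBP4* cells, against 12.08 and 12.05 FPKM for the 12382 genes.

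Most of the 60 genes were higher in pLVX-*RBP4* cells, by a small amount. In the direction of the introduced gene were 56 of 60, beside 50.2% of all 12382 genes, and 4 were lower, beside 49.8%. The median log2 difference was 0.22, beside 0.0014. A value at least 25% higher in pLVX-*RBP4* than in CTRL cells, on the FPKM + 1 scale, was found for 13 genes, or 21.7%, beside 7.11% of all genes. In the other direction, with CTRL at least 25% above pLVX-*RBP4*, stood *COX10* alone, or 1 of 60, beside 5.31%. This limit of 25% refers to the FPKM + 1 scale throughout. The counts past it in each complex and role below stand beside the same shares of 7.11% upward and 5.31% downward. In a set of a few genes, none or 1 past it is near these shares. The 13 genes encode 3 subunits of complex I, 2 of complex III, 3 of complex IV and 3 of complex V, cytochrome c and the copper chaperone *COX17*. Among them, *NDUFB3*, *COX6A1* and *COX6C* were found only through the names in the paper, so the count of 13 is not free of that choice. None of the 60 reached 2-fold.

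**Figure D1:**
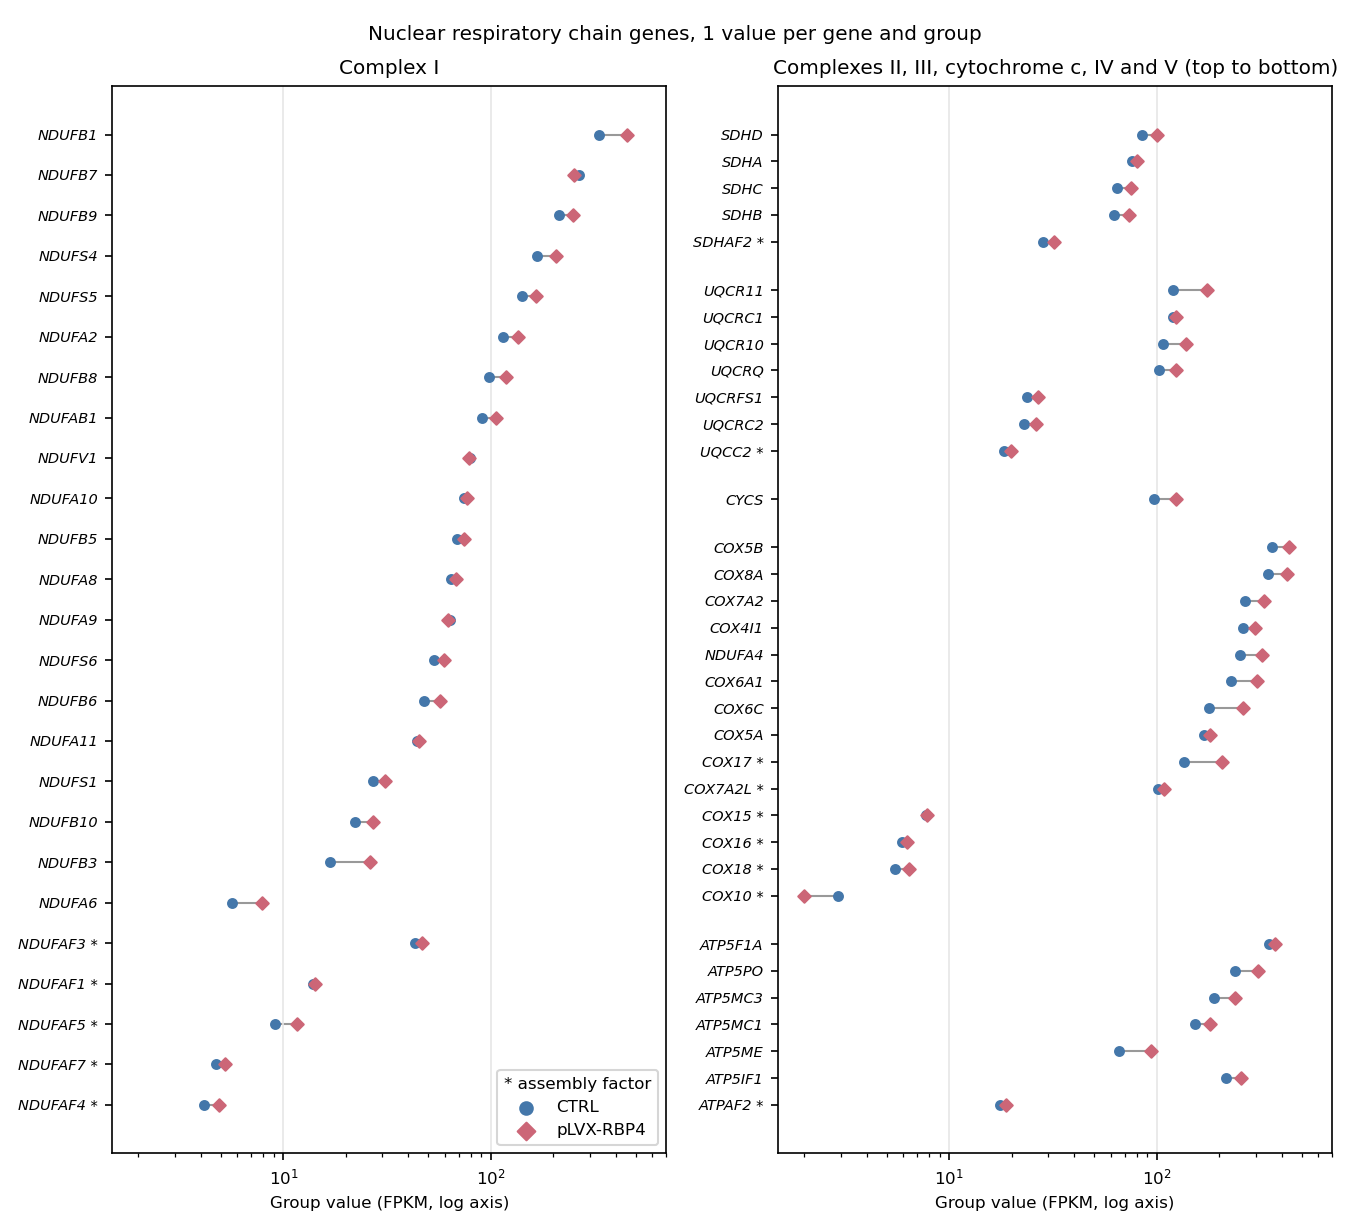
Deposited values of 59 of the 60 genes in CTRL cells (circles) and pLVX-*RBP4* cells (diamonds), in FPKM on a log axis, ordered within each complex by the CTRL value and with assembly factors marked by an asterisk. The lines joining the symbols are short beside the range of levels, which runs from 2.92 FPKM for *COX10* to 358.4 FPKM for *COX5B* in CTRL cells, and *COX10*, *NDUFB7*, *NDUFA9* and *NDUFV1* are the genes with the diamond on the left.

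Complex I takes electrons from NADH to ubiquinone. Its core subunits hold the flavin and the iron-sulfur clusters or pump protons, and the accessory subunits form a shell around them. The 21 subunit genes found were higher in pLVX-*RBP4* cells in 18 cases, with a median log2 difference of 0.22. Levels differed widely for proteins that enter the complex in nearly equal numbers: in CTRL cells they ranged from 5.68 FPKM for *NDUFA6* to 333.0 FPKM for *NDUFB1*, or 58.6-fold, and the order of the 21 levels was identical in both groups.

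Of the core subunits, *NDUFS1*, the largest iron-sulfur subunit, had 27.1 FPKM in CTRL cells and 31.0 FPKM in pLVX-*RBP4* cells, a log2 difference of 0.19. *NDUFV1*, the flavin subunit that oxidises NADH, had 79.8 FPKM in CTRL cells and 78.9 FPKM in pLVX-*RBP4* cells, a log2 difference of -0.016. The values of the NADH-binding subunit were almost equal, and the sign of their difference depended on the scaling, being positive after median scaling or rescaling to a common sum.

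Among the accessory subunits, 16 of 18 were higher. The *NDUFB* subunits, which belong to the distal membrane arm, held both the largest and the most negative difference of the complex. *NDUFB3* had a CTRL value of 16.8 FPKM and a pLVX-*RBP4* value of 26.1 FPKM (log2 difference 0.61). *NDUFB1*, the most abundant complex I transcript here, had 333.0 FPKM in CTRL cells and 454.2 FPKM in pLVX-*RBP4* cells, a log2 difference of 0.45. These were the only *NDUFB* genes past 25%. *NDUFB10* had 22.0 FPKM in CTRL cells and 27.1 FPKM in pLVX-*RBP4* cells, a log2 difference of 0.29. *NDUFB8* had a CTRL value of 98.0 FPKM and a pLVX-*RBP4* value of 117.7 FPKM (log2 difference 0.26). *NDUFB6* had 47.7 FPKM in CTRL cells and 57.1 FPKM in pLVX-*RBP4* cells, a log2 difference of 0.25. These 3 genes differed by nearly equal steps although their CTRL levels ranged from 22.0 to 98.0 FPKM. *NDUFB9*, a LYR protein that binds the acyl carrier protein, had 213.6 FPKM in CTRL cells and 248.8 FPKM in pLVX-*RBP4* cells, a log2 difference of 0.22. *NDUFB5* had a CTRL value of 68.3 FPKM and a pLVX-*RBP4* value of 74.3 FPKM (log2 difference 0.12). By contrast, *NDUFB7*, a twin-cysteine protein of the intermembrane space, had 266.2 FPKM in CTRL cells and 250.4 FPKM in pLVX-*RBP4* cells, a log2 difference of -0.088. It was lower in pLVX-*RBP4* cells under each of the 6 scalings compared. The median of the 8 *NDUFB* genes was 0.26.

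The 7 *NDUFA* genes, with *NDUFAB1* among them, had a median of 0.088 and 1 member past 25%. This was *NDUFA6*, the other LYR protein of complex I, with 5.68 FPKM in CTRL cells and 7.88 FPKM in pLVX-*RBP4* cells, a log2 difference of 0.41. *NDUFAB1*, the mitochondrial acyl carrier protein that both LYR proteins bind, had a CTRL value of 90.3 FPKM and a pLVX-*RBP4* value of 105.4 FPKM (log2 difference 0.22). *NDUFA2*, with a thioredoxin-like fold, had 114.1 FPKM in CTRL cells and 134.9 FPKM in pLVX-*RBP4* cells, a log2 difference of 0.24. Each of these 3 lay above the median of the 60 genes. The other 4 were nearly level. *NDUFA8*, a twin-cysteine protein, had 64.1 FPKM in CTRL cells and 68.2 FPKM in pLVX-*RBP4* cells, a log2 difference of 0.088. *NDUFA10*, related to nucleoside kinases, had a CTRL value of 74.4 FPKM and a pLVX-*RBP4* value of 76.9 FPKM (log2 difference 0.046). *NDUFA11*, a membrane protein, had 44.2 FPKM in CTRL cells and 45.0 FPKM in pLVX-*RBP4* cells, a log2 difference of 0.027. *NDUFA9*, which sits where the arms of the complex join, was the lower one, with 63.4 FPKM in CTRL cells and 62.0 FPKM in pLVX-*RBP4* cells, a log2 difference of -0.031. The sign of each of these 4 depended on the scaling. *NDUFA9* turned to higher after rescaling to a common sum. *NDUFA8*, *NDUFA10* and *NDUFA11* turned to lower when the sum was taken without the most abundant gene, and *NDUFA11* also after scaling to the upper quartile of genes with a mean of 1 FPKM or more.

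The accessory *NDUFS* genes were all higher. *NDUFS4*, whose loss causes Leigh syndrome in humans, had a CTRL value of 166.7 FPKM and a pLVX-*RBP4* value of 206.6 FPKM (log2 difference 0.31). *NDUFS5* had 141.3 FPKM in CTRL cells and 165.6 FPKM in pLVX-*RBP4* cells, a log2 difference of 0.23. *NDUFS6*, a zinc-binding subunit, had 53.3 FPKM in CTRL cells and 59.5 FPKM in pLVX-*RBP4* cells, a log2 difference of 0.16. The 3 values ran between 0.16 and 0.31 on the log2 scale, within the range of the *NDUFB* genes.

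The 5 complex I assembly factors had a median level of 9.15 FPKM in CTRL cells (range 4.16 to 43.3), against 74.4 FPKM for the complex I subunits, and all 5 were higher in pLVX-*RBP4* cells with none past 25% on the FPKM + 1 scale. *NDUFAF5*, which hydroxylates the core subunit NDUFS7, had a CTRL value of 9.15 FPKM and a pLVX-*RBP4* value of 11.6 FPKM (log2 difference 0.31). *NDUFAF4* had 4.16 FPKM in CTRL cells and 4.92 FPKM in pLVX-*RBP4* cells, a log2 difference of 0.20. *NDUFAF3*, its partner early in assembly, had 43.3 FPKM in CTRL cells and 46.5 FPKM in pLVX-*RBP4* cells, a log2 difference of 0.10. The partners thus differed 10.4-fold in their CTRL level. *NDUFAF7*, a methyltransferase, had a CTRL value of 4.72 FPKM and a pLVX-*RBP4* value of 5.22 FPKM (log2 difference 0.12). *NDUFAF1*, a part of the intermediate that builds the membrane arm, had 13.9 FPKM in CTRL cells and 14.2 FPKM in pLVX-*RBP4* cells, a log2 difference of 0.034. The median of the 5 was 0.12.

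Complex II, succinate dehydrogenase, feeds electrons from the citric acid cycle to ubiquinone and has no mitochondrially encoded subunit. All 4 subunits were found, and their levels were the most even of the complexes, between 62.2 and 85.2 FPKM in CTRL cells. *SDHA*, the flavoprotein, had 76.4 FPKM in CTRL cells and 80.1 FPKM in pLVX-*RBP4* cells, a log2 difference of 0.067. *SDHB*, the iron-sulfur subunit, had a CTRL value of 62.2 FPKM and a pLVX-*RBP4* value of 73.2 FPKM (log2 difference 0.23). *SDHC*, a membrane anchor, had 64.1 FPKM in CTRL cells and 75.1 FPKM in pLVX-*RBP4* cells, a log2 difference of 0.22. *SDHD*, the other anchor, had 85.2 FPKM in CTRL cells and 99.9 FPKM in pLVX-*RBP4* cells, a log2 difference of 0.23. Hence *SDHB*, *SDHC* and *SDHD* differed by almost the same amount, and *SDHA* by less. *SDHAF2*, needed to attach the flavin to SDHA, had a CTRL value of 28.4 FPKM and a pLVX-*RBP4* value of 31.8 FPKM (log2 difference 0.16).

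Complex III passes electrons from ubiquinol to cytochrome c. All 6 subunits found were higher in pLVX-*RBP4* cells, with a median of 0.23, and they split by role. *UQCRC1*, a core protein, had 120.2 FPKM in CTRL cells and 123.7 FPKM in pLVX-*RBP4* cells, a log2 difference of 0.042. *UQCRC2*, the other core protein, had 22.8 FPKM in CTRL cells and 26.3 FPKM in pLVX-*RBP4* cells, a log2 difference of 0.20. *UQCRFS1*, the Rieske iron-sulfur protein, had a CTRL value of 23.7 FPKM and a pLVX-*RBP4* value of 26.8 FPKM (log2 difference 0.17). These 3 had a median of 0.17 and none passed 25%. The small accessory subunits were each further apart between the groups than any of the 3. *UQCR11* had 120.2 FPKM in CTRL cells and 174.3 FPKM in pLVX-*RBP4* cells, a log2 difference of 0.53. *UQCR10* had 107.8 FPKM in CTRL cells and 138.4 FPKM in pLVX-*RBP4* cells, a log2 difference of 0.36. *UQCRQ* had a CTRL value of 102.4 FPKM and a pLVX-*RBP4* value of 123.3 FPKM (log2 difference 0.26). In the CTRL group *UQCR11* and *UQCRC1* were at the same level, 120.2 FPKM each, and in pLVX-*RBP4* cells they were at 174.3 and 123.7 FPKM. *UQCC2*, an assembly factor needed for cytochrome b, had 18.3 FPKM in CTRL cells and 19.8 FPKM in pLVX-*RBP4* cells, a log2 difference of 0.11. *CYCS*, cytochrome c, the soluble carrier from complex III to complex IV and a trigger of apoptosis once released, had 97.3 FPKM in CTRL cells and 124.1 FPKM in pLVX-*RBP4* cells, a log2 difference of 0.35.

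Complex IV, cytochrome c oxidase, reduces oxygen. Its nuclear subunits surround a mitochondrially encoded core and were the most abundant set, from 169.6 to 358.4 FPKM in CTRL cells. *NDUFA4*, named for complex I but a subunit of complex IV, was counted here. All 8 were higher in pLVX-*RBP4* cells, with a median log2 difference of 0.30 and 3 past 25%. *COX6C* had a CTRL value of 178.3 FPKM and a pLVX-*RBP4* value of 259.7 FPKM (log2 difference 0.54). *COX6A1* had 227.9 FPKM in CTRL cells and 305.7 FPKM in pLVX-*RBP4* cells, a log2 difference of 0.42. *NDUFA4* had 251.0 FPKM in CTRL cells and 321.3 FPKM in pLVX-*RBP4* cells, a log2 difference of 0.35. These are the 3 past the limit. A group of 3 followed just under it. *COX7A2* had a CTRL value of 266.5 FPKM and a pLVX-*RBP4* value of 329.5 FPKM (log2 difference 0.30). *COX8A* had 345.5 FPKM in CTRL cells and 425.2 FPKM in pLVX-*RBP4* cells, a log2 difference of 0.30. *COX5B*, the zinc-binding subunit, had 358.4 FPKM in CTRL cells and 436.6 FPKM in pLVX-*RBP4* cells, a log2 difference of 0.28. Smaller differences belonged to the subunits that join the complex early. *COX4I1* had a CTRL value of 260.0 FPKM and a pLVX-*RBP4* value of 297.7 FPKM (log2 difference 0.19). *COX5A* had 169.6 FPKM in CTRL cells and 181.4 FPKM in pLVX-*RBP4* cells, a log2 difference of 0.10. The summed level of the 8 genes was 2057 FPKM in CTRL cells and 2557 FPKM in pLVX-*RBP4* cells, a ratio of 1.24.

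The assembly factors of complex IV ran from -0.39 to 0.61 in their log2 differences. *COX17*, which hands copper to the proteins that load it into the oxidase, had 135.1 FPKM in CTRL cells and 207.2 FPKM in pLVX-*RBP4* cells, a log2 difference of 0.61. This was the largest log2 difference of the 60 genes, although *NDUFB3* was first by the ratio without the added 1 (1.55 against 1.53). *COX7A2L*, which joins complexes III and IV into a supercomplex, had a CTRL value of 101.4 FPKM and a pLVX-*RBP4* value of 108.9 FPKM (log2 difference 0.10). The other 4 were below 10 FPKM. *COX18*, which inserts part of the COX2 protein into the membrane, had 5.51 FPKM in CTRL cells and 6.37 FPKM in pLVX-*RBP4* cells, a log2 difference of 0.18. *COX16* had 5.94 FPKM in CTRL cells and 6.25 FPKM in pLVX-*RBP4* cells, a log2 difference of 0.063. These lay on either side of the median of all assembly factors, 0.11. The 2 enzymes of heme A synthesis, which act one after the other, were not alike. *COX10*, which turns heme B into heme O, had a CTRL value of 2.92 FPKM and a pLVX-*RBP4* value of 2.004 FPKM (log2 difference -0.39). *COX15*, which turns heme O into heme A, had 7.73 FPKM in CTRL cells and 7.78 FPKM in pLVX-*RBP4* cells, a log2 difference of 0.0087. *COX10* was thus the most weakly expressed of the 60 genes and the one furthest down, with a pLVX-*RBP4* value 0.686 times the CTRL value.

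Complex V makes ATP in its F1 head as the ring of c subunits turns in the membrane. Of the 5 subunits found all were higher, with a median of 0.33. *ATP5F1A*, the alpha subunit of the head, had 349.5 FPKM in CTRL cells and 370.4 FPKM in pLVX-*RBP4* cells, a log2 difference of 0.084. *ATP5PO*, the stalk protein OSCP, had a CTRL value of 238.9 FPKM and a pLVX-*RBP4* value of 307.0 FPKM (log2 difference 0.36). *ATP5ME*, subunit e of the membrane part, had 65.5 FPKM in CTRL cells and 93.6 FPKM in pLVX-*RBP4* cells, a log2 difference of 0.51. The only head subunit found by name thus had the smallest difference of the 5 and subunit e the largest. *ATP5MC1*, a gene of the c subunit, had 153.7 FPKM in CTRL cells and 180.4 FPKM in pLVX-*RBP4* cells, a log2 difference of 0.23. *ATP5MC3*, which encodes the same mature c subunit, had a CTRL value of 188.6 FPKM and a pLVX-*RBP4* value of 237.8 FPKM (log2 difference 0.33). *ATP5IF1*, which blocks ATP hydrolysis by the enzyme, had 214.9 FPKM in CTRL cells and 256.0 FPKM in pLVX-*RBP4* cells, a log2 difference of 0.25. *ATPAF2*, a chaperone of the alpha subunit, had 17.6 FPKM in CTRL cells and 18.9 FPKM in pLVX-*RBP4* cells, a log2 difference of 0.10, close to the value of *ATP5F1A*.

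**Figure D2:**
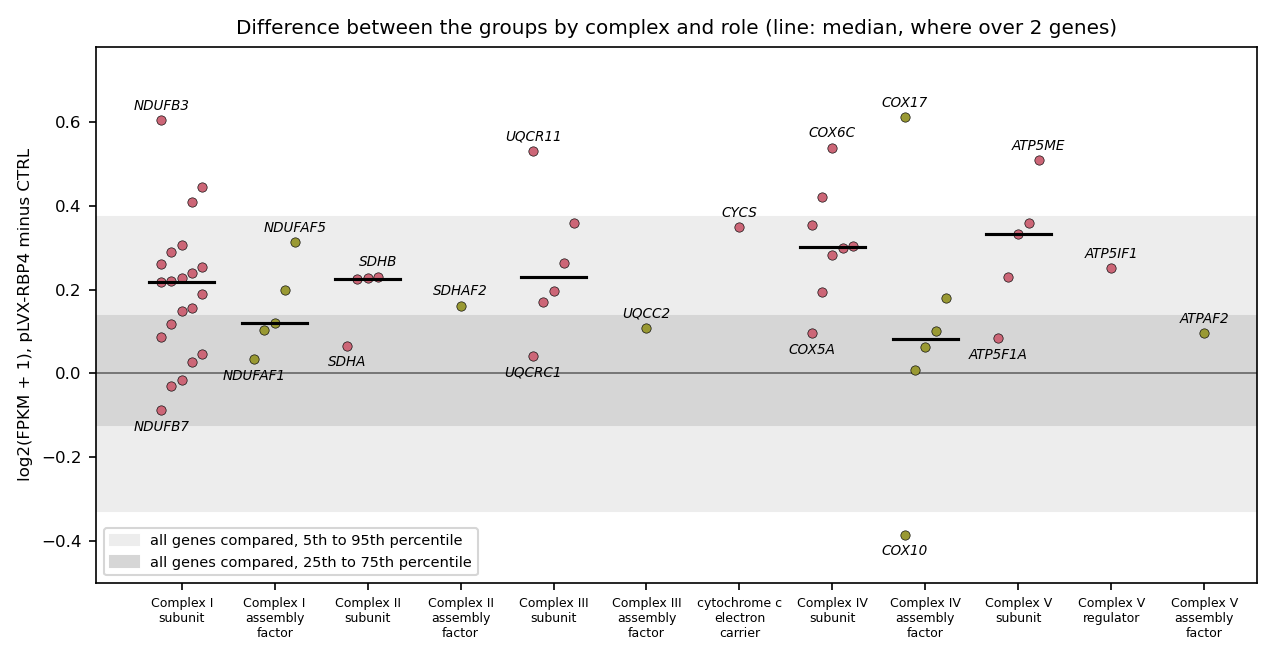
Difference of log2(FPKM + 1), pLVX-*RBP4* minus CTRL, for each of the 60 genes by complex and role, with the median of each set of more than 2 genes as a line and the central ranges of all 12382 genes as bands. The subunit medians lie between 0.22 and 0.33, above the 75th percentile of all genes at 0.14, while 8 of the 14 assembly factors lie between the 25th and the 75th percentile.

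Set side by side by role, the 44 subunits had a median log2 difference of 0.23 (41 higher, 11 past 25% upward). The 14 assembly factors had a median of 0.11 (13 higher, 1 or 7.14% past the limit). Over all genes 50.2% were higher and 7.11% passed 25% upward, so by this limit the assembly factors were at the share of all genes. Within complexes I, II, III and V, the 9 core, catalytic or head subunits had a median of 0.15 with none past 25%. The other 27 subunits had a median of 0.24 with 8 past it. Among the 9, *ATP5F1A* was the only head subunit. In a set of 9 genes, none past the limit is near the share of all genes. These sets are small, and the differences between them were not tested. The roles also differed in level, with CTRL medians of 100.2 FPKM for the subunits and 11.5 FPKM for the assembly factors. They were not compared at like level or at like transcript length, so role, level and length cannot be told apart here. Many subunits are small proteins with short transcripts, for which FPKM depends on the correction for fragment length. In all, 8 of the 60 genes, *COX17*, *NDUFB3*, *COX6C*, *UQCR11*, *ATP5ME*, *NDUFB1*, *COX6A1* and *NDUFA6*, lay above the 95th percentile of all genes (0.37), and 40 above the 75th percentile.

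Abundant genes were higher in pLVX-*RBP4* cells more often than weak ones, so the 60 genes were also set beside genes of like level. Among the 2074 genes with a mean of at least 50 FPKM, 63.6% were higher and 36.4% lower, 8.44% passed 25% upward and 1.74% downward, and the median was 0.064. Of the respiratory chain genes in this class, 38 of 41 were higher and 3 lower, 11 passed 25% upward and 0 downward, with a median of 0.23. At 100 FPKM or more, 27 of 28 were higher, with a median of 0.27, beside 66.4% and 0.081 for the other 1064 genes of that level. From 50 to 100 FPKM, 11 of 13 were higher, with a median of 0.16, beside 59.3% and 0.038 for the other genes. In the class from 10 to 50 FPKM all 12 were higher, with a median of 0.17, beside 49.1% and -0.0038 for the other genes. Between 1 and 10 FPKM, 6 of 7 were higher, with a median of 0.12, beside 46.0% and -0.020 for the other genes. From the highest class to the lowest, 10 of 28, 1 of 13, 1 of 12 and 1 of 7 passed 25% upward. Among the other genes of these classes 9.02%, 7.02%, 6.17% and 7.42% did. Below 100 FPKM the counts past 25% were thus near the shares of the other genes. Across the 60 genes the Spearman correlation of the mean level with the difference was 0.40, and across all 12382 genes 0.13. The points share the same libraries, and the correlations are given as a description. Ribosomal protein genes had differences of like size, which were not tested. Of 45 mitochondrial ribosomal protein genes 43 were higher, with a median of 0.23 and 11 past 25% upward. All 27 cytoplasmic ribosomal protein genes found were higher, with a median of 0.27 and 8 past 25%. Both medians lay above the 0.22 of the 60 genes.

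**Figure D3:**
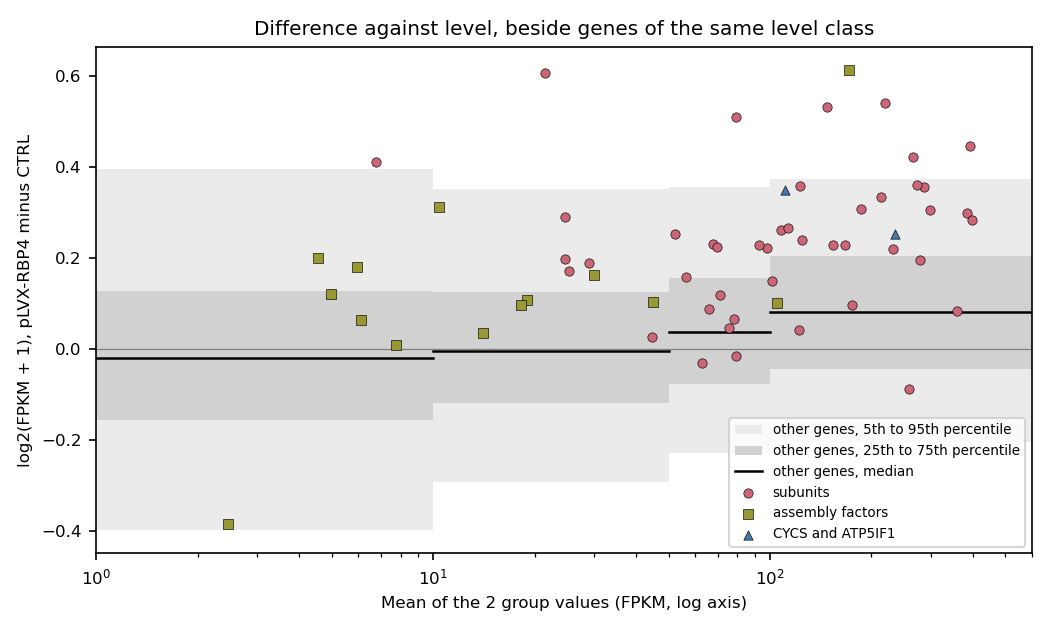
Difference of log2(FPKM + 1) of the 60 genes against their mean level in FPKM on a log axis, over the 5th, 25th, 50th, 75th and 95th percentiles of the other genes in 4 classes of level. The median line of the other genes climbs from -0.020 in the lowest class to 0.081 in the highest, and in each class most of the respiratory chain genes lie above it.

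Another scaling moved all genes together. The most abundant gene, ENSSSCG00000025162, which has no name here, took 35.4% of the summed FPKM in CTRL cells and 25.8% in pLVX-*RBP4* cells. Rescaling both columns to a common sum raised the pLVX-*RBP4* values, so that 58 of the 60 genes and 64.9% of all genes were higher. When the sum was taken without that gene, a choice made after the data were seen, the median of all genes moved to -0.10, 42 of the 60 and 30.1% of all genes were higher, and 6 of the 60 passed 25% upward. The median of the 60 genes was then 0.10. Measured from the median of all genes it was 0.21, compared with 0.22 as deposited. Under this scaling 14 genes turned from higher to lower, each with a deposited log2 difference of at most 0.11, among them *SDHA*, *UQCRC1*, *ATP5F1A* and *COX5A*.

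**Figure D4:**
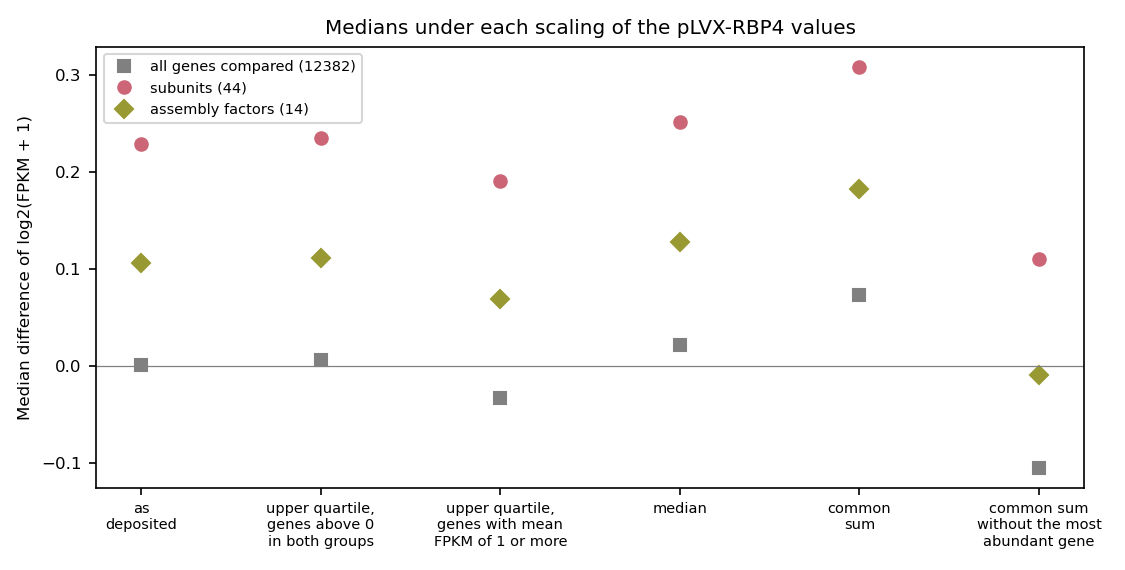
Median difference of log2(FPKM + 1) of the 44 subunits, the 14 assembly factors and all 12382 genes under the deposited scaling and 5 others. The symbols move up and down together, from 0.31 to 0.11 for the subunits, 0.18 to -0.0092 for the assembly factors and 0.073 to -0.10 for all genes, and keep their order at each setting.

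The mitochondrially encoded subunits had smaller median differences than their nuclear partners. For complex I, the 6 found had a median of 0.15, beside 0.22 for the 21 nuclear subunits. Of these 21, 18 are accessory, while the mitochondrially encoded subunits belong to the core. The 3 nuclear core subunits of complex I had a median of 0.15 as well, so among core subunits the medians were nearly equal. For complex IV, the 3 of the catalytic core had a median of 0.070, beside 0.30 for the 8 nuclear ones. None of the 10 mitochondrially encoded genes found passed 25%, beside 7.11% of all genes upward and 5.31% downward. In a set of 10 genes this count is near the share of all genes. These comparisons were not tested.

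Other genes of the pathway were taken from a list of 69, of which 43 were found by name and 42 had a mean of at least 1 FPKM. Of these, 28 were higher and 14 lower, with a median of 0.13, 5 past 25% upward and 1 downward. Over all genes 50.2% were higher, 49.8% lower, 7.11% past 25% upward and 5.31% downward, and the counts that follow stand beside the same shares. Assembly and maturation factors outside the name rule were higher in 11 of 18 cases. *LYRM2*, another mitochondrial LYR protein, had a CTRL value of 14.6 FPKM and a pLVX-*RBP4* value of 33.97 FPKM (log2 difference 1.17). *COA4*, a twin-cysteine protein of complex IV assembly, had 15.9 FPKM in CTRL cells and 24.2 FPKM in pLVX-*RBP4* cells, a log2 difference of 0.57. At the other end, *NUBPL*, which delivers iron-sulfur clusters to complex I, had 3.82 FPKM in CTRL cells and 2.68 FPKM in pLVX-*RBP4* cells, a log2 difference of -0.39. *LYRM2* exceeded each of the 60 genes in its difference, and *NUBPL* was as far down as *COX10*. Enzymes that feed electrons to ubiquinone were higher in 5 of 6 cases, with a median of 0.25, and enzymes of ubiquinone synthesis in 6 of 7, with a median of 0.12.

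Transcription and replication factors of the system were split, with 6 of 11 (54.5%) higher, near the 50.2% of all genes, and a median of 0.043. *TFB2M*, a cofactor of the mitochondrial RNA polymerase, had a CTRL value of 3.11 FPKM and a pLVX-*RBP4* value of 4.52 FPKM (log2 difference 0.43). *TWNK*, the helicase of mitochondrial DNA, had 5.07 FPKM in CTRL cells and 4.04 FPKM in pLVX-*RBP4* cells, a log2 difference of -0.27. *PPARGC1A*, a coactivator of mitochondrial biogenesis, had 2.69 FPKM in CTRL cells and 2.21 FPKM in pLVX-*RBP4* cells, a log2 difference of -0.20. Apart from *TFB2M* none of the 11 passed 25%. *NRF1*, which binds promoters of many respiratory chain genes and was picked after its values were seen, was at 3.41 and 3.99 FPKM in the CTRL and pLVX-*RBP4* groups.

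Many respiratory chain genes have processed copies in mammalian genomes. In the RefSeq gene table of Sscrofa11.1, *NDUFA4* was the name of 2 genes. This search was by the same name only, and several members, such as *UQCR11* and *COX8A*, were not found there at all. It therefore cannot show which other members have copies. How the reads of such copies were divided is not known from the deposited values, and the levels of these genes are uncertain in that respect.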

How the data were processed

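RNA from porcine GCs of the pLVX-*RBP4* and CTRL groups, 3 libraries each, was sequenced 72 h after infection. According to the paper, TopHat2 placed the filtered paired-end reads on Sscrofa10.2, and Cuffdiff (Cufflinks) gave the expression values. The deposited values are FPKM computed by the authors, with 1 value per gene and group. Both value columns were used and 0 were left out. Tool versions and the annotation release were not given in the sources used here, and the depth per library is not in these values. The study's read totals show more mapped reads in each pLVX-*RBP4* library than in any CTRL library, and were not used in the calculations.

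From them log2(FPKM + 1) was taken, and the groups were subtracted where the mean FPKM was at least 1. No p-value, SD or interval was computed, because a single value per group gives no spread. A planned limma fit, with and without a replicate block, could not be made for the same reason. Lists were described by counts and medians beside all genes, and genes with 1 group at least 25% above the other on the FPKM + 1 scale were counted. The calculation was tested on simulated data. Members, lists and roles were chosen with earlier results of these data known. The rule allowed all members to be named, and 1 of them is not reported here on its own. Of other pathway genes, the 3 largest increases and decreases are named. Planned comparisons by protein length and promoter motif were not made, since no sequence was used here. Alternatives were pseudocounts of 0.1 or 0, no filter or a mean FPKM of at least 5, and 5 scalings, of which 2 were added after seeing the data. Shifts of 0.1 or more on the log2 scale, or of over 1.5 times in a count, were taken as a move. Python 3.11.15, numpy 2.4.6 and pandas 2.3.3 were used.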

Additional observations from a re-analysis of the deposited data

How the results depend on the processing

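No paired analysis was possible because the deposited table holds 1 value per gene and group, and leaving out single replicates was not run for the same reason, nor was the alternative edge of the length classes. Scaling mattered most. With a common sum taken without the most abundant gene, the median log2 difference was 0.10 for the 60 genes, 0.11 for the 44 subunits, -0.0092 for the 14 assembly factors and -0.10 for all genes. By complex the subunit medians were then 0.10 (I), 0.11 (II), 0.11 (III), 0.18 (IV) and 0.21 (V), and that of complex IV assembly factors was -0.028. Under the same scaling 18 of the 60 genes were lower, 6 were at least 25% higher, and 6 of the 14 assembly factors, 3 of 5 for complex I and 2 of 6 for complex IV, were higher. Rescaling to a common sum of all genes left 2 genes lower and put 23 past 25% upward. Scaled to the upper quartile of those with a mean of 1 FPKM or more, 7 genes were lower, because *NDUFA11*, *NDUFAF1* and *COX15* changed sign. With a mean FPKM of at least 5, *COX10* dropped out, so that 0 genes passed 25% downward, and 3 of 3 complex I assembly factors were higher. No other median or count of the sets moved past its limit. Of the single genes, 57 of the 60 moved by at least 0.1 with the common sum taken without the most abundant gene. No gene past 25% changed sign under an alternative. Under the other alternatives *COX10* alone moved, to -0.52 with a pseudocount of 0.1 and to -0.54 with none. The deposited values do not hold the reads behind each gene, so the precision of a value could not be computed, including for *COX10* and the other genes below 10 FPKM.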

Other observations

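Beside the ribosomal proteins given above, 2 other mitochondrial gene families in the same table were described by their counts, without a test. Of 16 *TIMM* and *TOMM* genes, which encode the import machinery for nuclear-encoded mitochondrial proteins, 16 were higher in pLVX-*RBP4* cells as deposited, with a median log2 difference of 0.20 and a highest value of 0.82, and 13 were higher when the columns were rescaled to a common sum without the most abundant gene, beside 30.1% of all genes under that scaling. Enzymes of the citric acid cycle and pyruvate dehydrogenase, which supply NADH and succinate, were higher in 11 of 16 cases, with a median of 0.057 and values between -0.16 and 0.39. Over the 12382 genes as deposited, 50.2% were higher. After rescaling to a common sum 15 of the 16 enzymes were higher, beside 64.9% of all genes, and without the most abundant gene 6 of 16, beside 30.1%.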
